A study of Mus musculus with 6 samples.

Results

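The 8 genes described here encode proteins that take part in attaching ubiquitin to other proteins or in taking it off again. These are the conjugating enzymes Ube2h, Ube2r2 and Ube2j1, the ligases Rnf20, Rnf19a and Fbxl7 (a ligase subunit), and the deubiquitinases Usp14 and Otud6b. They were taken by name from a table of 53647 gene identifiers measured by RNA sequencing in D2.OR, a mouse mammary carcinoma line used as a model of dormant tumour cells. All cells had been transduced with a lentivirus and selected with puromycin. The shScram group (3 libraries) carried a scrambled, non-targeting short hairpin RNA and the shSLX4IP group (3 libraries) a hairpin against Slx4ip, the gene of a partner of the nuclease scaffold SLX4. Both groups grew for 7 days on a basement membrane extract (Cultrex) in medium with 10% serum and 5% Cultrex. The replicates are labelled biological, with no word on whether they came from separate cultures, so the p-values measure the spread between these libraries. A library is named by its group and the letter of its column (A, B or C), and 3 values of a group are given in that order.

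Ubiquitin is a small protein that is activated by an E1 enzyme, passed to an E2 conjugating enzyme and joined to a substrate with the help of an E3 ligase, which chooses the substrate. Chains of ubiquitin can send a protein to the proteasome, and single ubiquitins change the activity of proteins such as histones. Deubiquitinases cut ubiquitin off, which recycles it and can rescue a substrate.

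A value is the authors' normalised read count, that is, reads divided by 1 size factor per library. Low values gave the value of 1 read, and 99.98% or more of the values above 0 in each library were whole reads within 0.1. The libraries held 5433573 to 6693111 reads. The values of shScram A summed to 8948118, against 5276405 to 5974334 in the other 5 libraries, so comparisons with shScram A depend on its size factor. This library also had fewer features above 0, at 8464 against 10548 to 11611 in the other 5. Identifiers in most of the genome are not read here as the gene they name. Slx4ip itself (chromosome 2) was listed at 0 in all 6 libraries and gives no check of the labels. Of the epithelial genes looked up, Krt8, Krt19, Krt5, Krt14 and Epcam were also at 0 in all 6. Krt18 was at 2.80 in shScram B and at 0 elsewhere, while Cdh1 was at 380 to 728. Genes are therefore read only where high values run along the chromosome in GRCm38 gene order, in 4 segments on chromosomes 4, 6, 15 and 18, and in the mitochondrial genome (placed genes). All 8 genes lie inside them. Around Otud6b and Rnf20, however, only 3 of the 10 nearest protein-coding genes had a mean value of at least 100, against 5 to 8 around the others. Of 19 cell type markers only Col1a2, a collagen gene of mesenchymal cells, was placed, so the cell type could not be checked. It was at 20226 to 25022 in shScram and at 239 to 302 in shSLX4IP, and the part of a shift in cell state or cell mixture in the values below was not tested. In these bulk samples fewer cells of a type and less RNA per cell cannot be told apart.

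In shSLX4IP the message of the E2 enzyme Ube2h was 3.08 times that in shScram, while those of the E2 enzyme Ube2j1 and the deubiquitinase Otud6b were 49.8% and 57.4% lower. These 3 changes passed the test (limma on log2(value + 1), Benjamini-Hochberg adjustment over 8127 features, threshold 0.05). Ube2r2, Rnf20, Rnf19a and Usp14 did not pass. Fbxl7 was listed at 0 in every library and was not tested. Thus 1 of 7 tested members was higher and 2 were lower. Over all features tested 23% passed (11.7% higher and 11.3% lower), and over the 462 placed ones 40.3% did. Groups were free of overlap for 6 of the 7 members, 1 of them upwards and 5 downwards. The same was so for 53.5% of all features (30.2% upwards and 23.4% downwards) and for 67.1% of placed ones. Placed features were not split by direction here, so the 5 downwards are not read as an excess. The median log2 fold change was -0.30 over the 7 members, -0.23 over placed features and 0.25 over all features. Without shScram A, 2 members were higher and 4 lower, and calls were also more frequent elsewhere, at 42.7% of all features and 65.2% of placed ones.

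**Figure D1:**
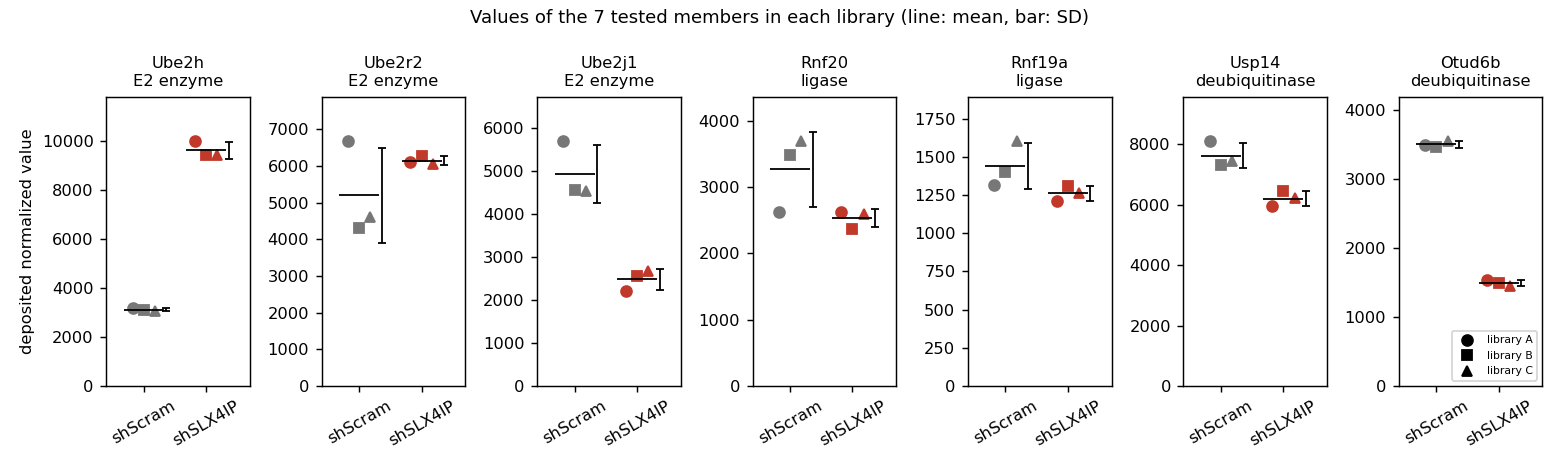
Deposited normalised value (vertical axes, each from 0) of the 7 tested members in the 3 shScram and 3 shSLX4IP libraries, with the group mean as a line and the SD as a bar. The groups are farthest apart for Ube2h, Ube2j1 and Otud6b, and shScram A is set off from shScram B and C for Ube2r2, Ube2j1 and Rnf20.

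The 3 E2 enzymes differ in the place where they work and in the ligases they serve. UBE2H is the E2 of the CTLH complex, a multi-subunit ligase. UBE2J1 sits in the membrane of the endoplasmic reticulum and takes part in the disposal of misfolded proteins there. UBE2R2, a relative of CDC34, builds chains with cullin-RING ligases. The sequences that precede the starts of Ube2h and Ube2j1 are shown. These are the E2 members with a listed stretch wholly outside the annotated gene, and Ube2r2 had none by this rule. Ube2h and Ube2j1 also passed the test, in opposite directions. The sequences are the 250 bases before the RefSeq start in GRCm38.p6, 5′ to 3′ on the strand of the gene. They lie at chr6:30304540-30304789 on the minus strand for Ube2h and at chr4:33031130-33031379 on the plus strand for Ube2j1. Capitals mark matches on either strand to the GC box GGGCGG and to TGACG, the core of the cyclic AMP response element.
Ube2h: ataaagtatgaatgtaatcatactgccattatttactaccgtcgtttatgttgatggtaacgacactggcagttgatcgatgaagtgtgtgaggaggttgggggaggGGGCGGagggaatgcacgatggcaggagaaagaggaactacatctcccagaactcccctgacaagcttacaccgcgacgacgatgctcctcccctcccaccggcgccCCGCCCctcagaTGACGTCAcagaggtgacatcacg
Ube2j1: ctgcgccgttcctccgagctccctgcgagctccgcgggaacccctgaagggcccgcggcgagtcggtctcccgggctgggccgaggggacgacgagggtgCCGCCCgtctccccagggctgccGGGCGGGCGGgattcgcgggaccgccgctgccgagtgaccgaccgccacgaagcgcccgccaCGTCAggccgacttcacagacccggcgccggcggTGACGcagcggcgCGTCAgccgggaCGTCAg
The Ube2h stretch was 53.6% G and C and that of Ube2j1 77.2%. Ube2h held 2 GC boxes and 2 TGACG matches. Those 2 overlap as the palindrome TGACGTCA, matched once per strand, from 24 to 17 bases before the start. Ube2j1 held 3 GC boxes, 2 of them overlapping, and 4 separate TGACG matches, the nearest of them 6 bases before the start. Of 32851 stretches of this length in the RefSeq table, 32.7% hold a GC box and 17.8% a TGACG. The CCAAT box (CCAAT), the E-box CACGTG, the ETS core CCGGAAG and the endoplasmic reticulum stress element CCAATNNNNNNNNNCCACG, searched on both strands, had no match in either stretch. They occur in 33.8%, 6.02%, 6.91% and 0.113% of all stretches. A match is a description of these letters, and the data hold no measurement of binding. The RefSeq table also lists another start for Ube2h, and the values are per gene and do not separate starts.

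Ube2h (ENSMUSG00000039159.17, chromosome 6, 30211289 to 30304539) was at 3178, 3124 and 3064 in shScram and at 10015, 9424 and 9439 in shSLX4IP. Every shSLX4IP library lay above every shScram library, and the 3 shScram values were close together, shScram A included. In reads the shScram libraries were at 2170, 3344 and 3362, so the closeness of shScram A depends on its size factor. The mean rose from 3122 ± 56.7 to 9626 ± 337 (SD, n = 3 each), a log2 fold change of 1.62 (SE 0.10, limma adjusted p = 0.000589). The change ranked 56 from the top among the 462 placed features. The call held in all 16 other settings, with log2 fold changes from 1.59 to 2.14 and adjusted p up to 0.00655.

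Ube2j1 (ENSMUSG00000028277.14, chromosome 4, 33031416 to 33052363) was at 5692, 4548 and 4533 in shScram and at 2196, 2557 and 2667 in shSLX4IP. All 3 shSLX4IP values lay below the shScram values, of which shScram A was the highest. The mean fell from 4924 ± 665 to 2473 ± 246 (SD, n = 3 each), a log2 fold change of -0.99 (SE 0.16, limma adjusted p = 0.00946). Without shScram A the log2 fold change was -0.88 (adjusted p = 0.00291). The call was lost after quantile normalization (-0.49, adjusted p = 0.0577) and held in the other 15 settings, with adjusted p up to 0.0491.

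Ube2r2 (ENSMUSG00000036241.4, chromosome 4, 41135743 to 41193380) was at 6688, 4315 and 4614 in shScram and at 6101, 6283 and 6043 in shSLX4IP. The groups overlapped only through shScram A, which was above all other libraries. Its log2 fold change was 0.27 (95% interval -0.21 to 0.74, limma adjusted p = 0.340), an interval that holds a fall, no change and a rise. Without shScram A it was 0.46 and passed (adjusted p = 0.00383). It also passed with a trend with exonic length removed (0.41, adjusted p = 0.0380) and after quantile normalization (0.83, adjusted p = 0.00285).

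Levels of different genes are compared here per kilobase (kb) of exonic length. In shScram the order of the 3 E2 messages was Ube2j1 at 1395 ± 188 per kb, Ube2r2 at 1243 ± 309 and Ube2h at 653 ± 11.9. Ube2j1 was above Ube2r2 within each shScram library, narrowly in shScram A (1612 against 1596 per kb). The ranges of the 2 genes over the shScram libraries overlapped, and their difference was not tested. In shSLX4IP the order was turned round, with Ube2h at 2014 ± 70.5, Ube2r2 at 1466 ± 29.9 and Ube2j1 at 701 ± 69.8. Ube2h made up 17.2%, 22.0% and 21.2% of the summed value per kb in shScram, and 50.2%, 47.0% and 47.3% in shSLX4IP. The share of Ube2j1 went from 42.5% ± 0.865 to 16.8% ± 1.66, and that of Ube2r2 was 37.4% ± 3.40 and 35.1% ± 0.608. The sum itself was 3291 ± 506 per kb in shScram and 4181 ± 12.9 in shSLX4IP.

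**Figure D2:**
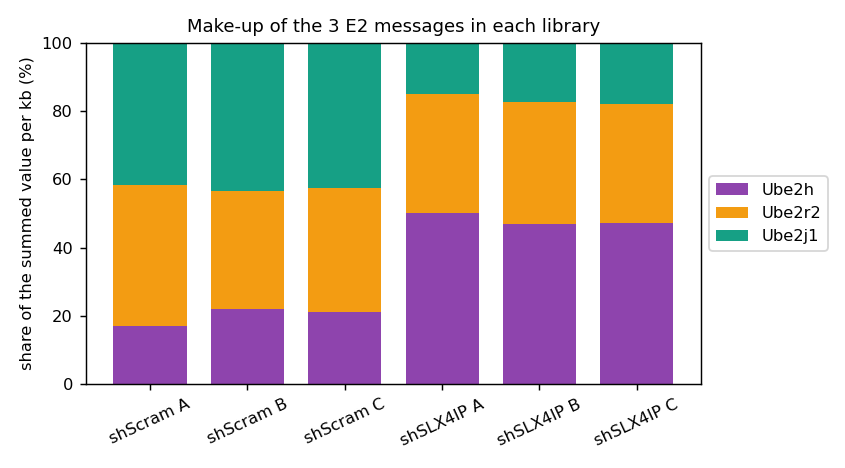
Share (vertical axis, %) of Ube2h, Ube2r2 and Ube2j1 in the summed value per kb of exonic length of the 3 messages, 1 bar per library. The share of Ube2h is between 17.2% and 22.0% in the shScram bars and between 47.0% and 50.2% in the shSLX4IP bars.

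Ratios of 2 genes within a library do not depend on its size factor. Of the 5 pairs of detected genes within a role, 4 had ratios that did not overlap between the groups. The same was so for 66.2% of 85905 pairs of placed features with values above 0 in all libraries, and 3 of the 5 pairs are made of the same 3 E2 genes. Ube2h over Ube2j1 was 0.558, 0.687 and 0.676 in shScram and 4.56, 3.69 and 3.54 in shSLX4IP, a 6.12-fold higher ratio. Ube2h over Ube2r2 was 2.56-fold higher and Ube2r2 over Ube2j1 2.39-fold higher in shSLX4IP. These are ratios of values and show unequal change only. The exact permutation test, 2-sided, gave p = 0.1 for each, the smallest that 3 libraries against 3 allow, and 0.125 after adjustment over the 5 pairs.

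The tested ligases gave smaller differences than the members that passed, and none of these differences passed. RNF20 is a RING ligase that, with RNF40, puts a single ubiquitin on histone H2B in transcribed chromatin. Rnf20 (ENSMUSG00000028309.15, chromosome 4, 49632006 to 49656887) was at 2630, 3479 and 3697 in shScram and at 2624, 2371 and 2593 in shSLX4IP. The groups were separate by a narrow margin, since shScram A lay close to the highest shSLX4IP library. The means were 3269 ± 564 and 2529 ± 138, with a log2 fold change of -0.36 (95% interval -0.78 to 0.07, limma adjusted p = 0.182). Without shScram A it was -0.51 and passed (adjusted p = 0.00604), as it did with the length trend removed (-0.50, adjusted p = 0.00627). After quantile normalization it was 0.10 (adjusted p = 0.808).

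RNF19A, also called dorfin, is a RING-in-between-RING ligase, a class that takes the ubiquitin onto itself before passing it on. Rnf19a (ENSMUSG00000022280.10, chromosome 15, 36239933 to 36283147) was at 1316, 1397 and 1605 in shScram and at 1209, 1311 and 1260 in shSLX4IP. The lowest shScram library was barely above the highest shSLX4IP library. The log2 fold change was -0.19 (95% interval -0.54 to 0.17, limma adjusted p = 0.364). It passed in 0 of 16 other settings, with adjusted p from 0.0818 to 0.704, and had the opposite sign after quantile normalization (0.11). Its exons share 119 bases with the microRNA gene Mir8097 on the same strand. The ratio of Rnf20 to Rnf19a overlapped between the groups, at 2.00 to 2.49 in shScram and 1.81 to 2.17 in shSLX4IP (exact permutation p = 0.3, also 0.3 after adjustment over the 5 pairs).

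FBXL7 is an F-box protein, the substrate-binding part of a cullin ligase of the SCF type. Fbxl7 (ENSMUSG00000043556.11, chromosome 15, 26540459 to 26895580) had 0 reads in each of the 6 libraries. With 3 reads as the limit that a count of 0 allows, its share was at most 4.48e-05% to 5.52e-05% of the reads of a library. This limit covers counting error only. Of the 10 nearest protein-coding genes, 7 had a mean value of at least 100 and 3 were listed at 0. No fold change is given.

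Of the deubiquitinases, Otud6b fell and Usp14 did not pass. OTUD6B is a deubiquitinase of the ovarian tumour (OTU) family. Otud6b (ENSMUSG00000040550.18, chromosome 4, 14809498 to 14826587) was at 3500, 3461 and 3557 in shScram and at 1536, 1498 and 1453 in shSLX4IP. Both groups were tight and lay far apart, with shScram A in the middle of its group. In reads the shScram libraries were at 2390, 3705 and 3903, so the place of shScram A depends on its size factor. The mean fell from 3506 ± 48.5 to 1495 ± 41.4 (SD, n = 3 each), a log2 fold change of -1.23 (SE 0.11, limma adjusted p = 0.00168). The call held in all 16 other settings, with log2 fold changes from -1.25 to -0.80 and adjusted p up to 0.0225. The change ranked 100 from the bottom among the 462 placed features.

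USP14 binds the proteasome and trims ubiquitin chains from its substrates. Usp14 (ENSMUSG00000047879.18, chromosome 18, 9993066 to 10045119) was at 8108, 7303 and 7453 in shScram and at 5939, 6436 and 6211 in shSLX4IP. All shSLX4IP libraries lay below all shScram libraries. The means were 7621 ± 428 and 6196 ± 249, with a log2 fold change of -0.30 (95% interval -0.57 to -0.03, limma adjusted p = 0.104). It passed without shScram A (-0.25, adjusted p = 0.0244), with the length trend removed (-0.51, adjusted p = 0.0195) and with DESeq2 on the recovered reads (-0.30, adjusted p = 0.0180), and was at 0.24 after quantile normalization (adjusted p = 0.370). Of its exonic bases 26.0% overlap those of Thoc1 on the other strand, and the strand setting of the counting is not given in the sources used here, so reads of the 2 genes may not be told apart. The ratio of Usp14 to Otud6b was 2.32, 2.11 and 2.095 in shScram and 3.87, 4.30 and 4.28 in shSLX4IP, without overlap (exact permutation p = 0.1, the smallest possible, and 0.125 after adjustment over the 5 pairs).

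**Figure D3:**
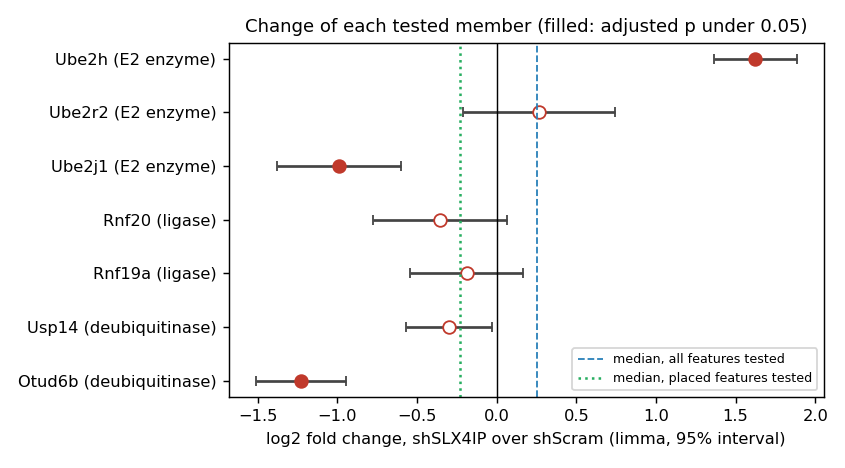
Log2 fold change of each tested member (horizontal axis, shSLX4IP over shScram, limma) with its 95% interval. Filled points passed the adjusted threshold of 0.05, namely Ube2h at 1.62, Ube2j1 at -0.99 and Otud6b at -1.23, and the lines mark the medians of all (0.25) and of placed (-0.23) features tested.

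Within shScram the members did not follow library A alike. On the log2 scale shScram A stood above the mean of shScram B and C by 0.58 for Ube2r2, 0.33 for Ube2j1 and 0.14 for Usp14. It was nearly level for Ube2h (0.04) and Otud6b (-0.0039), and it stood at -0.19 for Rnf19a and -0.45 for Rnf20. Each of these values depends on the size factor of shScram A. Exonic length ran in another order, from Otud6b at 3.39 kb and Ube2j1 at 3.53 kb through Ube2r2 at 4.19 kb, Rnf19a at 4.43 kb and Ube2h at 4.78 kb to Rnf20 at 7.29 kb and Usp14 at 8.35 kb. The part of length in these deviations was not tested.

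**Figure D4:**
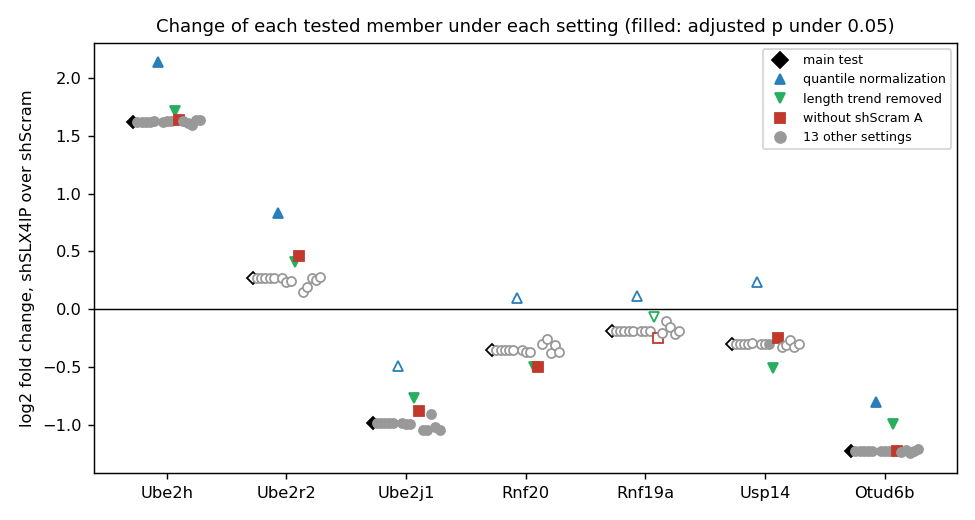
Log2 fold change of each tested member (vertical axis, shSLX4IP over shScram) in the main test and in 16 other settings, filled where the adjusted p was under 0.05. Ube2h and Otud6b are filled throughout, and quantile normalization moves every member upwards, to 0.10 for Rnf20 and 0.24 for Usp14.

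Among 366 other placed protein-coding genes, the one with the profile most like that of a member over the 6 libraries was taken by the smallest Euclidean distance between centred log2 values. For Otud6b this was Ubxn2b (distance 0.26), a cofactor gene of the segregase VCP, with a log2 fold change of -1.16. For Ube2h it was Ank (0.19), a gene of pyrophosphate transport, and for Ube2j1 it was Inip (0.25), of a single-stranded DNA binding complex. For Ube2r2 it was the asparagine synthetase gene Asns (0.07), and for Usp14 it was Retreg1 (0.12), a receptor gene for autophagy of the endoplasmic reticulum. Rnf20 and Rnf19a shared Epc1 (0.23 for each), a gene of a histone acetyltransferase complex. With 6 libraries in 2 groups such likeness is a description.

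The wider ubiquitin system was read through a list of name patterns covering E1 and E2 enzymes, ligases, cullin complexes, deubiquitinases, ubiquitin receptors and the proteasome. It gave 685 genes besides the members, of which 26 were placed and 18 were tested. With limma 4 of these 18 passed upwards and 6 downwards, that is 55.6%, against 40.3% of placed and 23% of all features. Their median log2 fold change was -0.15. No E1 enzyme, proteasome subunit or further E2 enzyme was placed. Of the 8 placed genes not tested, Fbxo43, Otulinl, March11, Rnf133 and Rnf148 were listed at 0 in all libraries, and Asb4, Asb15 and Klhl32 were close to 0. Without any 1 shSLX4IP library the counts were 1 higher and 2 lower, and without shScram C 3 higher and 2 lower. Over all features the called share was then 10.4% to 10.6% and 13.9%, and over placed ones 21.2% to 22.3% and 27.5%.

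Among the ubiquitin receptors and the segregase, 3 of 5 passed downwards and none upwards. Of placed features 22.9% passed downwards and 17.3% upwards, and of all features 11.3% and 11.7%. VCP, also called p97, is the ATPase that pulls ubiquitinated proteins out of membranes and complexes, at the endoplasmic reticulum among other places. Vcp was at 59349, 36326 and 40062 in shScram and at 15027, 14745 and 14748 in shSLX4IP. The groups were well apart, with shScram A the highest library. The log2 fold change was -1.57 (SE 0.20, limma adjusted p = 0.00477), held in all 16 other settings and was -1.36 without shScram A. Ubxn2b fell by 1.16 on the log2 scale (adjusted p = 0.00724) and kept its call in all 16 settings. Rad23b, which carries ubiquitinated proteins to the proteasome, was at 16814 to 20728 in shScram and 12372 to 13103 in shSLX4IP. Its fall of -0.57 (adjusted p = 0.0254) was lost in 7 of 16 settings and was 0.13 after quantile normalization. Ubap1 and Ubap2 did not pass, at -0.43 (adjusted p = 0.126) and -0.28 (adjusted p = 0.200).

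Of the 6 tested genes of cullin complexes, 2 passed upwards and 1 downwards. In either direction 40.3% of placed and 23% of all features passed. The F-box gene Fbxl4, whose product acts at mitochondria, was at 331, 413 and 456 in shScram and at 1290, 1371 and 1332 in shSLX4IP. These groups did not come near each other, and the log2 fold change was 1.74 (SE 0.18, limma adjusted p = 0.00233), with the call kept in all 16 settings. Fbxo10, another F-box gene, rose by 1.06 on the log2 scale (adjusted p = 0.0135), a call lost without any 1 shSLX4IP library (0.0556 to 0.0653). Skp2, the F-box protein gene known for the degradation of the cell cycle inhibitor p27, fell from values of 2052 to 2169 to values of 1257 to 1350. Its log2 fold change of -0.68 (adjusted p = 0.0146) lost its call in 6 of 16 settings, among them without any 1 shSLX4IP library or shScram C (0.0543 to 0.0663). Dcaf10, Dcaf12 and Klhdc10 did not pass, with log2 fold changes from -0.13 to 0.18.

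Of the 4 tested genes in the list of RING and RBR ligases, 1 passed upwards and 1 downwards. In either direction 40.3% of placed and 23% of all features passed. The name patterns of the list also took Trim14, a TRIM protein gene without a RING domain. Trim14 was at 104, 326 and 323 in shScram and at 1208, 1177 and 1362 in shSLX4IP. All shSLX4IP values were far above the shScram values, of which shScram A was the lowest. The log2 fold change was 2.48 (SE 0.48, limma adjusted p = 0.0184). Of the exonic bases of Trim14, 31.3% overlap Nans on the other strand. The call of Trim14 did not survive the omission of any 1 shSLX4IP library (0.0758 to 0.0827 for the adjusted p). Topors fell by 0.50 on the log2 scale (adjusted p = 0.0390), a call lost in 11 of 16 settings. The ER membrane ligase gene March6 and the Notch ligand regulator Mib1 did not pass, at -0.17 and 0.31, nor did the HECT ligase gene Wwp1, at -0.04.

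Both further deubiquitinase genes passed, in opposite directions, where 40.3% of placed and 23% of all features passed. OTULIN removes linear ubiquitin chains. Otulin was at 3532, 1197 and 1389 in shScram and at 582, 431 and 527 in shSLX4IP, with shScram A far above the rest. Its log2 fold change was -1.82 (SE 0.44, limma adjusted p = 0.0353) and -1.34 without shScram A (adjusted p = 0.00335). Usp45 was at 917, 1850 and 1599 in shScram and at 3293, 3329 and 3247 in shSLX4IP. It rose by 1.24 on the log2 scale (SE 0.28, adjusted p = 0.0300), and by 0.94 without shScram A (adjusted p = 0.00137). Both calls were lost without shScram C, without any 1 shSLX4IP library and, with all 6 libraries, in limma without the intensity trend. The adjusted p was then from 0.0515 to 0.131.

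**Figure D5:**
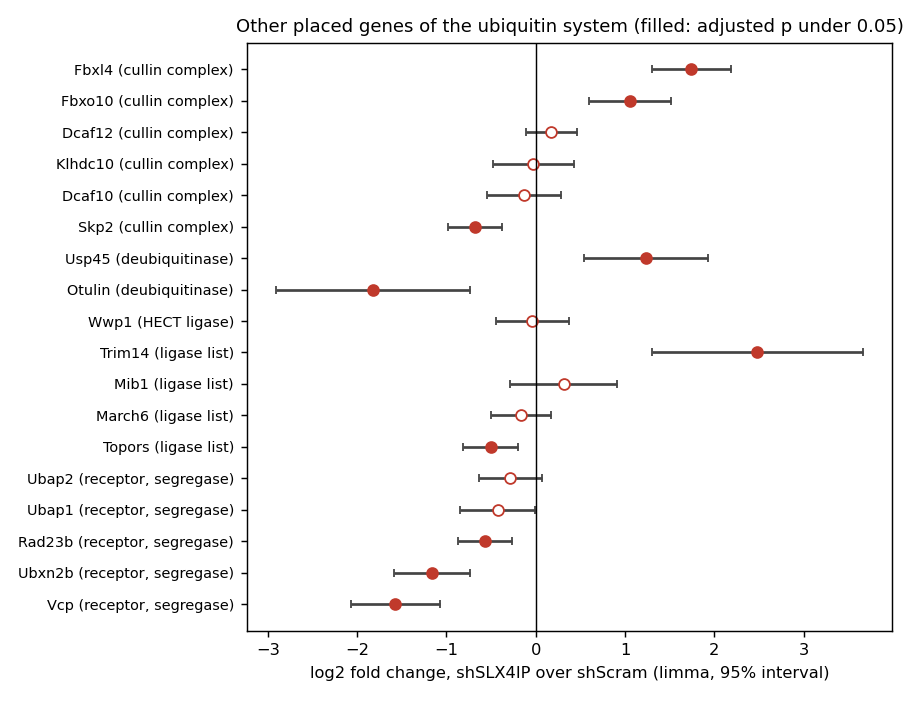
Log2 fold change (horizontal axis, shSLX4IP over shScram, limma) with 95% interval for the 18 tested placed genes of the ubiquitin system other than the members, grouped by role. Filled points passed the adjusted threshold of 0.05, 4 of them to the right of 0, from Fbxo10 at 1.06 to Trim14 at 2.48, and 6 to the left, from Topors at -0.50 to Otulin at -1.82.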

How the data were processed

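The deposited table holds, per the file headers, normalised gene counts of 6 libraries, which the authors divided by 1 size factor each and which are treated as a normalised signal. Per the submitters' processing notes, fastp 0.19.5, STAR 2.7.7, StringTie 2.1.7, DESeq2 1.22.1 and GRCm38 were used. The sources used here do not give their roles, the annotation release or the strand setting. Per the labels' protocols, 1 µg of total RNA went into each stranded mRNA library.

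Identifiers without version were matched to GENCODE M21 (GRCm38), 52093 of 53647. Identifier versions matched for 35. Protein-coding genes in genome order scored 3 at a mean of at least 1000 and otherwise -1, and segments of maximal score were kept from a score of 30. Features with a mean of at least 10 were tested 2-sided on log2(value + 1) with an intensity trend in limma 3.58.1 (R 4.3.3). Fold changes are on that scale, which understates changes of low genes. Recovered reads went to edgeR 4.0.16 and DESeq2 1.42.0 with the authors' size factors, as alternatives. On simulated data the limma script was tested. Exonic length is the merged length of M21 exons. Columns carry letters, not the replicate numbers of the labels.

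Members, lists and tests were chosen with earlier results of these data known. All 8 members were named, as were pathway genes past the threshold (up to 2 highest and 2 lowest per role), each member's nearest profile and Slx4ip. Some genes that the name patterns match are not reported here and are left out of the list's counts. Genes that did not pass and those at or near 0 are named besides this rule, after their values were seen.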

Additional observations from a re-analysis of the deposited data

How the results depend on the processing

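Of the 3 calls among the members, those of Ube2h and Otud6b held in all 16 other settings and that of Ube2j1 in 15. All 8 members also lay inside a segment when a mean of 300 scored a gene as high. Quantile normalization took the median log2 fold change over all features from 0.25 to -0.0028 and over placed features from -0.23 to 0.06. With it, 2 members were higher and 1 lower, at 28.3% of all features called against 23% in the main test, and Rnf20 (0.10), Rnf19a (0.11), Usp14 (0.24) and Rad23b (0.13) changed sign. On the recovered reads edgeR called 1523 features and DESeq2 2732, against 1872 with limma. With the length trend removed, a fit of 431 placed nuclear features of which 63.3% were called, 2 members were higher and 4 lower. Leaving out 1 library gave 1 to 2 members higher and 2 to 4 lower, the upper counts without shScram A, while the called share of all features ran from 10.4% to 42.7%, the highest also without shScram A. Of the other ubiquitin genes, 1 to 4 were higher and 2 to 7 lower when 1 library was left out, 3 were lower after quantile normalization, and 2 were lower with limma without the trend. Fits without 1 library also have fewer degrees of freedom, and the cause of these shifts was not tested. Removal of the length trend for these other genes was added after seeing the data and gave 5 higher and 7 lower. Both groups use the letters A, B and C, with no word on whether a letter marks a pair. Deviations from the group means of same-lettered libraries had Pearson r from -0.021 to -0.00073 over 8127 features, which are not independent. Libraries of different letters had r from -0.017 to 0.018. Deviations within a group are bound to each other, and most of these features were not placed. These values therefore do not decide whether letters mark pairs. A limma fit with the letter as a replicate block, added after seeing the data and not among the 16 settings, called 8.29% of all features, 1 member higher (Ube2h, adjusted p = 0.0254) and 1 lower (Otud6b, adjusted p = 0.0399), and 1 other ubiquitin gene in each direction. Ube2j1 had the same log2 fold change and an adjusted p of 0.0719. Members had 899 to 11857 reads per library where detected, so counting error is small for them.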
